A study of Homo sapiens with 38 samples.

Results

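CXCL1, CXCL2, CXCL3 and CXCL8 are 4 of 12627 genes whose transcripts were sequenced in HCT116, a line of human colorectal cancer cells. They were taken by symbol after the RefSeq identifiers of the table had been matched to names, as the neutrophil-attracting CXC chemokine genes of chromosome 4. All 4 were present, as NM_001511 (CXCL1), NM_002089 (CXCL2), NM_002090 (CXCL3) and NM_000584 (CXCL8). RNA was collected 72 h after siRNA transfection from 9 conditions. Non-transfected (NT) cells received no siRNA. Control cells received 60 nM of the non-targeting duplex siCTRL#1, or siCTRL#2, whose dose the labels do not give. Single silencing of VPS4A (siVPS4A#1 or siVPS4A#2) or of VPS4B (siVPS4B#1 or siVPS4B#2) combined 30 nM of the targeting duplex with 30 nM of siCTRL#1. Combined silencing used 30 nM of each duplex, siVPS4A#2 with siVPS4B#1 in siVPS4A+B#1 and siVPS4A#1 with siVPS4B#2 in siVPS4A+B#2. VPS4A and VPS4B are paralogous ATPases that take apart the ESCRT-III filaments through which cells bud vesicles into endosomes, seal membranes and complete division. The comparisons asked how the chemokine mRNAs stood after loss of either paralog or of both.

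The 37 libraries used held 5090666 to 11035293 reads, with 5 libraries for siCTRL#1 and 4 for every other condition. The library labelled siVPS4A#1 replicate 2 was left out, as the rule for choosing the data states. It held 669257 reads and went against its label, with 1 VPS4B read, or 1.49 reads per 1000000 reads of the library, where the other siVPS4A#1 libraries had 21.7 to 35.0 on the same scale. In the libraries used, VPS4A stood at 190 ± 14.0 (SD, n = 5) TMM-scaled reads per 1000000 (RPM) in siCTRL#1 cells, 2.18 ± 0.895 (SD, n = 4) with siVPS4A#1 and 7.88 ± 2.22 (SD, n = 4) with siVPS4A#2. VPS4B stood at 20.7 ± 3.54 (SD, n = 5) in siCTRL#1 cells, 0.433 ± 0.335 (SD, n = 4) with siVPS4B#1 and 1.07 ± 0.361 (SD, n = 4) with siVPS4B#2. In siVPS4A+B#1 cells VPS4A ran from 10.6 to 33.9 RPM and VPS4B stood at 0.538 ± 0.331 (SD, n = 4), against 5.03 ± 1.96 and 1.28 ± 0.315 (SD, n = 4) in siVPS4A+B#2 cells. Of 7 epithelial markers 6 were measured, with a summed level of 4363 to 8200 RPM over the conditions. Of 10 leukocyte markers only CD68 and LYZ were listed, of 8 fibroblast markers COL1A1 and PDGFRB, and of 4 endothelial markers PECAM1 and KDR.

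CXC chemokines are small secreted proteins that steer leukocytes along a gradient. The members studied here carry the Glu-Leu-Arg (ELR) motif, bind CXCR2 on neutrophils and draw these cells into inflamed tissue, and CXCL8, also known as interleukin 8, binds CXCR1 as well. Their genes are kept low in resting epithelial cells and are switched on through NF-kB, AP-1 and C/EBP factors at short promoters, while AU-rich stretches in the mRNA tail make the transcripts short-lived. In colorectal tumours, cancer cells themselves can be a source of these ligands.

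The genes lay within 359 kb of each other on chromosome 4 of GRCh37. CXCL8 (74606236 to 74609433) and CXCL1 (74735110 to 74737025) are on the plus strand, and CXCL3 (74902306 to 74904524) and CXCL2 (74962757 to 74964913) are on the minus strand. CXCL1, CXCL2 and CXCL3 are recent duplicates. Their coding sequences, of 324 bases each, were 93.5% identical between CXCL1 and CXCL2, 90.7% between CXCL1 and CXCL3 and 94.4% between CXCL2 and CXCL3, whereas CXCL8 shared 50.5% to 52.9% with them in an alignment. How reads were divided among the near-identical members is therefore uncertain, and this holds for every value of CXCL1, CXCL2 and CXCL3 below.

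The promoters are shown because an NF-kB motif stands in all of them at a similar distance from the start. Each runs 5′ to 3′ on the strand of its gene, from 150 bases before to 20 bases after the RefSeq start, and was read from RefSeq (GRCh38.p14) and found once, without mismatch, in GRCh37. Capitals mark matches, on either strand, to GGAATTTCC (NF-kB) and its looser form GGNNTTTCC, which includes the first. They also mark TGANTCA, the AP-1 site. The TATA box, TATAAA, is marked as well.
CXCL8: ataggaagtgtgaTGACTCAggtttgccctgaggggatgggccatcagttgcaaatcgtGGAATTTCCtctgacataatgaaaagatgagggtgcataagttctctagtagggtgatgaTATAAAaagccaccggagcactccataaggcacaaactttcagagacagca
CXCL1: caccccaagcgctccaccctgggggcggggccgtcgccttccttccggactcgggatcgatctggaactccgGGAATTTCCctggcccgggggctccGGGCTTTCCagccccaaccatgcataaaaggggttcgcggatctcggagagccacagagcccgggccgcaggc
CXCL2: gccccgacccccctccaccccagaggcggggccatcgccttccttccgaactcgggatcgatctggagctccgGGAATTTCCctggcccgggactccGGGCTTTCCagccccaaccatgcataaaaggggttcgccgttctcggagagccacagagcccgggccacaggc
CXCL3: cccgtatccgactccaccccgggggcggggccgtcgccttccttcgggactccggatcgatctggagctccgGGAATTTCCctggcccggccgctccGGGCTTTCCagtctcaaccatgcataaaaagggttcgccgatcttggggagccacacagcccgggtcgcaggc
These stretches are chr4:74606136-74606305 (plus strand), chr4:74734960-74735129 (plus strand), chr4:74964893-74965062 (minus strand) and chr4:74904387-74904556 (minus strand) of GRCh37, in the same order.

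The strict NF-kB motif GGAATTTCC was found in all 4 promoters and in 0.461% of 35116 RefSeq promoters of the same length, from 250 bases before to 50 after the start. It began 91 bases before the start in CXCL8, 78 in CXCL1 and CXCL3 and 77 in CXCL2. A further match to GGNNTTTCC, GGGCTTTCC, began 53 bases before the start in CXCL1, CXCL2 and CXCL3, and 6.26% of all promoters held the looser form. The AP-1 letters were found in CXCL8 alone, 137 bases before the start (7.71% of all promoters), as was TATAAA, 31 bases before it (11.5%). The C/EBP letters TTGCNNAA were found only in CXCL2, on the opposite strand 188 bases before the start and outside the stretch shown (10.5% of all promoters). A match is a run of letters and was not tested as a binding site, and a missing match does not show that a site is absent. The CXCL8 stretch holds ttgcaaat, which differs from the C/EBP letters in its last base. Over the 300 bases the promoters of CXCL1 and CXCL3 were 82.5% identical, and CXCL8 shared 41.9% to 42.9% with the other members.

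The tails of the transcripts shared a second feature. In the 3′ untranslated region of the GENCODE transcript with the longest coding sequence, the pentamer ATTTA, the core of AU-rich elements, occurred 9 times in CXCL8, 6 in CXCL1, 10 in CXCL2 and 7 in CXCL3. Per kb this was 7.19, 7.77, 14.0 and 10.4, against a median of 1.64 over 17606 genes. Between 96.5% and 99.6% of these genes had a lower density than each member.

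CXCL8, the prototype of the neutrophil attractants, was highest after combined silencing. Its level in NT cells was 4.56, 1.19, 1.24 and 1.53 RPM in replicates 1 to 4. In siCTRL#1 cells it was 3.37, 2.89, 3.56, 3.48 and 3.41 RPM in replicates 1 to 5. In siVPS4A+B#1 cells it was 251, 126, 258 and 339.7 RPM, and in siVPS4A+B#2 cells 97.5, 99.7, 56.8 and 100.4 RPM, in replicates 1 to 4. Every library of both combined conditions stood far above every control library. In bulk RNA a larger rise in some cells and a smaller one in all cells cannot be told apart. Behind these values were 831 to 2318 reads in siVPS4A+B#1, 355 to 835 in siVPS4A+B#2 and 10 to 36 in the NT and siCTRL#1 libraries.

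The fit with limma across all genes gave CXCL8 a log2 fold change of 5.72 ± 0.24 (SE) for siVPS4A+B#1 against siCTRL#1 (adjusted p = 1.59e-21) and of 4.31 ± 0.24 for siVPS4A+B#2 (adjusted p = 5.66e-18). A gene was called when its adjusted p was under 0.05 and its change at least 1.5-fold, and 22.1% and 28.7% of all genes were called in these 2 comparisons. Fold changes are on the scale of log2(RPM + 1), which draws low levels together. The plain ratios of the mean levels were 73.0 and 26.5. Against NT cells the log2 fold changes were 6.32 ± 0.24 and 4.92 ± 0.24 (adjusted p = 2.94e-23 and 1.29e-19), where 26.0% and 28.8% of all genes were called. Comparisons with the same control share its libraries. A two-sided exact permutation test of each member gave p = 0.0159 against siCTRL#1 and 0.0286 against NT, the smallest that these group sizes allow, or 0.0714 after adjustment over the 60 such tests made. In every member the combined condition was higher in 4 of 4 pairs of libraries with the same replicate number.

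Against siCTRL#1, CXCL8 was called in singly silenced cells with siVPS4B#1 and with no other duplex. Its levels were 2.45, 4.39, 2.54 and 2.32 RPM in siVPS4A#1 replicates 1, 3, 4 and 5, and 3.22, 2.51, 2.78 and 3.66 RPM in siVPS4A#2 replicates 1 to 4. With siVPS4B#1 they were 7.47, 7.09, 5.20 and 7.41 RPM, and with siVPS4B#2 2.21, 4.52, 3.76 and 3.63 RPM. The siCTRL#2 libraries had 2.16, 2.37, 3.00 and 2.28 RPM. All 4 siVPS4B#1 libraries exceeded all siCTRL#1 libraries, while the other single conditions overlapped them. The log2 fold change against siCTRL#1 was 0.82 ± 0.24 with siVPS4B#1 (adjusted p = 0.00939), where 12.9% of genes were called. This call was lost without the libraries of replicate 4 (0.77, adjusted p = 0.0552), with limma's test against a 1.5-fold change (adjusted p = 1.00) and with the library that was left out (0.66, adjusted p = 0.573). The left-out library, labelled siVPS4A#1, is in neither group of that comparison and enters only through the block and spread shared by all conditions. Against siCTRL#1 the estimates were -0.20 (95% confidence interval -0.67 to 0.27) with siVPS4A#1, -0.13 (-0.60 to 0.35) with siVPS4A#2 and 0.02 (-0.46 to 0.49) with siVPS4B#2. None was called, where 22.0%, 0.0871% and 7.57% of all genes were. Between the VPS4A duplexes none of the 4 members was called (22.2% of all genes), the estimates for siVPS4A#1 against siVPS4A#2 running from -0.10 for CXCL3 to 0.30 for CXCL1. Between the VPS4B duplexes, siVPS4B#2 stood below siVPS4B#1 by a log2 fold change of -0.80 ± 0.24 (adjusted p = 0.0121, 15.1% of genes called). Without siVPS4B#2 replicate 1 it was -0.59 (adjusted p = 0.0902), and without all libraries of replicate 1 or of replicate 4 it was -0.59 or -0.78 (adjusted p = 0.106 and 0.0523). Against NT cells the estimates with siVPS4A#1 and siVPS4A#2 were 0.41 and 0.48 and not called, but without NT replicate 1 both were (0.76 and 0.80, adjusted p = 0.0133 and 0.0222). CXCL8 was higher than in NT cells with siVPS4B#1 (1.42, adjusted p = 1.04e-05) and, with overlapping libraries, with siVPS4B#2 (0.63, adjusted p = 0.0499). The latter call ended without any 1 of 31 libraries, down to 0.46 without siVPS4B#2 replicate 2 (adjusted p = 0.210). The former ended with the left-out library (1.42, adjusted p = 0.120), which again is in neither group compared.

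**Figure D1:**
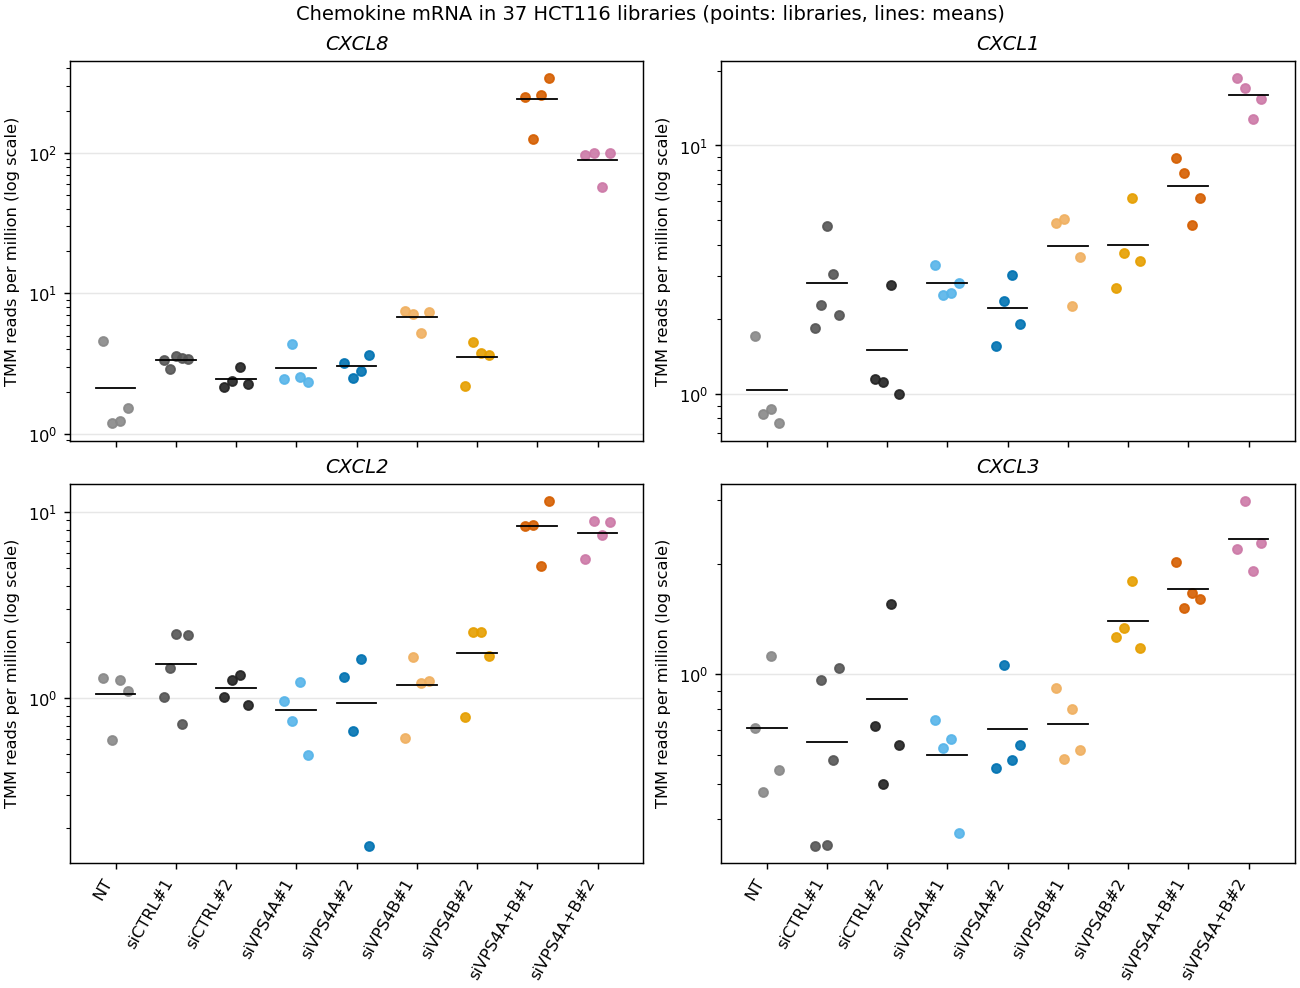
TMM-scaled reads per 1000000 (RPM) on a log axis (y) for each chemokine in the 9 conditions (x). Points are libraries and lines are group means. CXCL8 runs from 1.19 to 4.56 in NT cells and from 126 to 339.7 in siVPS4A+B#1 cells, and the combined conditions stand above both siCTRL#1 and NT in all panels.

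CXCL1, known as GRO-alpha, was highest in siVPS4A+B#2 cells. It stood at 1.71, 0.830, 0.870 and 0.764 RPM in NT replicates 1 to 4 and at 1.85, 2.29, 4.74, 3.04 and 2.08 RPM in siCTRL#1 replicates 1 to 5. The siVPS4A+B#1 libraries had 8.89, 7.76, 4.77 and 6.15 RPM, and the siVPS4A+B#2 libraries 18.6, 17.1, 12.8 and 15.4 RPM. The combined conditions did not overlap either control, although the lowest siVPS4A+B#1 library lay just above the highest siCTRL#1 library, both of replicate 3. The log2 fold change against siCTRL#1 was 1.04 ± 0.23 (SE, adjusted p = 0.000311) for siVPS4A+B#1 and 2.16 ± 0.23 (adjusted p = 2.89e-10) for siVPS4A+B#2. Against NT cells it was 1.94 ± 0.23 and 3.07 ± 0.23 (adjusted p = 7.62e-09 and 5.68e-14).

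CXCL1 also differed among the conditions without combined silencing. The siCTRL#1 libraries all exceeded the NT libraries, by a log2 fold change of 0.90 ± 0.23 (adjusted p = 0.00431, 9.05% of genes called). This became 0.81 without all libraries of replicate 4 (adjusted p = 0.0507). The siCTRL#2 duplex gave 1.15, 1.12, 2.76 and 1.00 RPM, overlapping both NT and siCTRL#1, with a log2 fold change of -0.63 ± 0.23 against siCTRL#1 (adjusted p = 0.0302, 16.8% of genes called). Leaving out any of 5 single libraries ended that call, namely replicate 3 or 4 of siCTRL#1 (-0.46 and -0.56, adjusted p = 0.154 and 0.0847) and replicate 1, 2 or 4 of siCTRL#2 (-0.56, -0.55 and -0.57, adjusted p = 0.0969, 0.0952 and 0.0883). In singly silenced cells CXCL1 stood at 3.31, 2.51, 2.54 and 2.81 RPM with siVPS4A#1 (replicates 1, 3, 4 and 5) and at 1.56, 2.38, 3.01 and 1.91 RPM with siVPS4A#2. With siVPS4B#1 it stood at 4.88, 5.05, 2.27 and 3.55 RPM and with siVPS4B#2 at 2.68, 3.70, 6.16 and 3.44 RPM. All 4 conditions overlapped siCTRL#1, and those of VPS4B reached the highest values. Against siCTRL#1 no single silencing was called, the estimates running from -0.24 with siVPS4A#2 to 0.37 with siVPS4B#2, although siVPS4B#1 was called without all libraries of replicate 3 (0.71, adjusted p = 0.00997). Against NT cells CXCL1 was higher in siVPS4A#1 (0.95, adjusted p = 0.00168, 25.0% called), siVPS4B#1 (1.25, adjusted p = 3.77e-05, 22.3% called) and siVPS4B#2 (1.27, adjusted p = 6.50e-05, 15.5% called). In siVPS4A#2 cells the change from NT was 0.66 (adjusted p = 0.0488, 8.15% called), which was lost without the replicate block (adjusted p = 0.0604) and without any 1 of 21 libraries, at 0.56 to 0.66. The siCTRL#2 duplex left all 4 members uncalled against NT, where 16.6% of genes were called. CXCL8 showed the same order of the 2 controls, 0.61 ± 0.24 for siCTRL#1 against NT (adjusted p = 0.0682), a call that was gained without NT replicate 1 (0.93, adjusted p = 0.00516) or siVPS4A+B#1 replicate 2 (0.61, adjusted p = 0.0449).

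CXCL2, or GRO-beta, rose with both pairs. It stood at 1.28, 0.593, 1.24 and 1.09 RPM in NT cells and at 1.01, 1.44, 2.20, 0.724 and 2.18 RPM in siCTRL#1 cells. The siVPS4A+B#1 libraries had 8.42, 8.52, 5.13 and 11.4 RPM and the siVPS4A+B#2 libraries 5.58, 8.97, 7.53 and 8.78 RPM. Its mean was 1.12 ± 0.192 RPM (SD, n = 4) with siCTRL#2, 0.854 ± 0.309 with siVPS4A#1, 0.933 ± 0.652 with siVPS4A#2, 1.17 ± 0.428 with siVPS4B#1 and 1.74 ± 0.695 with siVPS4B#2. The combined conditions overlapped each other and lay above every library of the other 7 conditions. The log2 fold change against siCTRL#1 was 1.91 ± 0.23 (SE, adjusted p = 1.07e-08) and 1.83 ± 0.23 (adjusted p = 1.58e-08), and against NT 2.16 ± 0.23 and 2.08 ± 0.23. No single silencing was called for CXCL2 against either control, although siVPS4A#1 was called lower than siCTRL#1 without all libraries of replicate 4 (-0.61, adjusted p = 0.0426). The estimates against siCTRL#1 ran from -0.40 (95% confidence interval -0.85 to 0.05) with siVPS4A#1 to 0.14 (-0.32 to 0.60) with siVPS4B#2.

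CXCL3, or GRO-gamma, had the fewest reads, 2 to 19 a library, and 3 of the 37 libraries were at or under the floor of 3 reads. It stood at 0.712, 0.474, 1.12 and 0.546 RPM in NT cells and at 0.337, 0.962, 0.339, 0.579 and 1.04 RPM in siCTRL#1 cells. The siVPS4A+B#1 libraries had 2.03, 1.52, 1.67 and 1.61 RPM and the siVPS4A+B#2 libraries 2.20, 2.99, 1.92 and 2.28 RPM. Both conditions stood above NT and siCTRL#1 without overlap, at 10 to 19 reads a library. The siVPS4A+B#1 libraries overlapped siCTRL#2, which reached 1.56 RPM (13 reads), and siVPS4B#2, which reached 1.80 RPM. All siVPS4A+B#2 libraries lay above both. The log2 fold change against siCTRL#1 was 0.75 ± 0.17 (SE, adjusted p = 0.000464) and 1.05 ± 0.17 (adjusted p = 2.17e-06), and the ratios of the mean levels were 2.62 and 3.60. On the recovered reads, edgeR's quasi-likelihood test gave 1.31 and 1.76 (adjusted p = 0.00627 and 0.000137). CXCL3 had a mean of 0.854 ± 0.478 RPM (SD, n = 4) with siCTRL#2, 0.601 ± 0.164 with siVPS4A#1, 0.706 ± 0.236 with siVPS4A#2 and 0.729 ± 0.156 with siVPS4B#1, and these conditions overlapped siCTRL#1. With siVPS4B#2 CXCL3 stood at 1.26, 1.34, 1.80 and 1.18 RPM, above every siCTRL#1 library, with a log2 fold change of 0.57 ± 0.17 (adjusted p = 0.0184) that was under 1.5-fold and so not called. That call was gained under several alternatives, among them without siVPS4B#2 replicate 1 or 4 (both 0.59, adjusted p = 0.0352 and 0.0323) and without siCTRL#1 replicate 2 or 5 (0.66 and 0.63, adjusted p = 0.0114 and 0.00975).

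All 4 chemokines were called higher in both combined conditions against siCTRL#1, where 10.6% and 12.8% of all genes were called higher, and against NT, where 12.6% and 13.2% were. The order of the conditions differed among the members. CXCL8 was highest in siVPS4A+B#1, then siVPS4A+B#2, then siVPS4B#1, each step being called, and the 6 conditions below did not differ between neighbours. CXCL1 ran from siVPS4A+B#2 to siVPS4A+B#1 to siVPS4B#2, both steps being called, with overlapping libraries in the latter (0.68, adjusted p = 0.0189), and down to NT as the lowest. For CXCL2 the step from the combined conditions to the rest was called, and for CXCL3 no step between neighbours was. In the limma fit, the change from siVPS4A+B#1 to siVPS4A+B#2 was -1.40 ± 0.24 for CXCL8 (adjusted p = 1.93e-05) and 1.12 ± 0.23 for CXCL1 (adjusted p = 0.000239), in opposite directions, where 17.4% of all genes were called. It was -0.08 (95% confidence interval -0.55 to 0.39) for CXCL2 and 0.30 (-0.05 to 0.65) for CXCL3, not called.

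The divergence of CXCL8 and CXCL1 was seen within libraries, where total depth cancels. In siVPS4A+B#1 libraries there were 16.3 to 55.2 CXCL8 reads for each CXCL1 read, against 4.44 to 6.52 in siVPS4A+B#2 libraries. In the other 7 conditions the ratio ran from 0.610 to 2.67. After adding 1 read to each, the mean log2 ratio was 5.07 ± 0.84 (SD, n = 4) in siVPS4A+B#1 and 2.44 ± 0.24 (SD, n = 4) in siVPS4A+B#2. By a two-sided exact permutation test this difference of -2.63 had p = 0.0286, the smallest that 4 libraries against 4 allow. After Benjamini-Hochberg adjustment over the 6 ratios of the members it was 0.0429. The pairs overlapped in neither gene and differed in opposite directions, which already fixed this p, so it is no separate support. CXCL8:CXCL3 fell by 1.84, CXCL1:CXCL2 rose by 1.30 and CXCL1:CXCL3 rose by 0.79, each with the same exact p of 0.0286 (adjusted p = 0.0429). CXCL8:CXCL2 changed by -1.33 (exact p = 0.0571, adjusted p = 0.0686) and CXCL2:CXCL3 by -0.51 (exact p = 0.114, adjusted p = 0.114). Amplicons differ in yield, so a ratio is compared between conditions only and is no ratio of molecules.

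**Figure D2:**
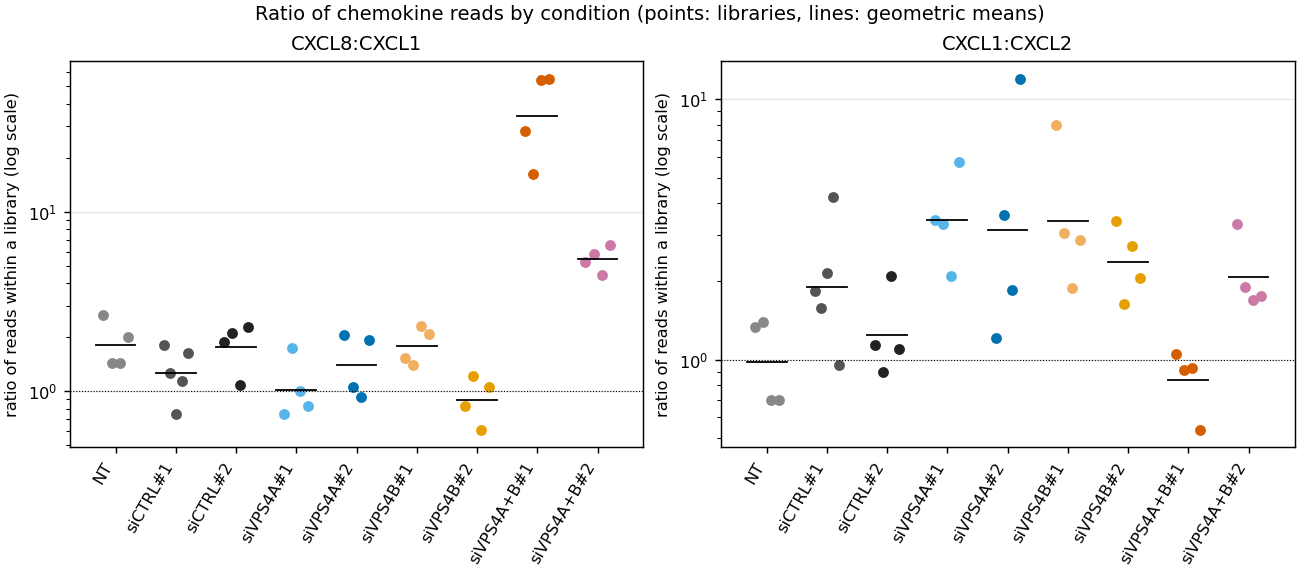
Reads of CXCL8 for each read of CXCL1 (left) and of CXCL1 for each read of CXCL2 (right) on a log axis, by condition. Points are libraries and lines are geometric means. The CXCL8:CXCL1 ratio is 16.3 to 55.2 in siVPS4A+B#1, 4.44 to 6.52 in siVPS4A+B#2 and at most 2.67 elsewhere.

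VPS4A and VPS4B levels differed between the pairs as given above. Within siVPS4A+B#1, replicates 1 to 4 had 12.9, 33.9, 22.4 and 10.6 RPM of VPS4A beside 251, 126, 258 and 339.7 RPM of CXCL8, so the library with the most VPS4A had the least CXCL8. CXCL1 followed another order, being lowest in replicate 3. In siVPS4A+B#2 the order was another again, with 3.05, 7.69, 4.32 and 5.05 RPM of VPS4A beside 97.5, 99.7, 56.8 and 100.4 RPM of CXCL8 in replicates 1 to 4. With 4 libraries a condition, no relation was tested.

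Combined silencing was next set against each of its own duplexes alone. Against siVPS4A#2, siVPS4A+B#1 raised CXCL8 by a log2 fold change of 5.84, CXCL1 by 1.29, CXCL2 by 2.30 and CXCL3 by 0.67 (adjusted p = 8.77e-22, 2.28e-05, 2.27e-10 and 0.00176), where 23.5% of genes were called. Against siVPS4B#1 the changes were 4.90, 0.69, 2.09 and 0.65 (adjusted p = 6.13e-19, 0.0351, 8.65e-09 and 0.00655), where 9.88% were called. The CXCL1 groups overlapped in that comparison, and its call ended without siVPS4A+B#1 replicate 1, 2 or 4 (0.56, 0.63 and 0.69, adjusted p = 0.125, 0.0841 and 0.0728), without siVPS4B#1 replicate 3 or 4 (0.45 and 0.70, adjusted p = 0.223 and 0.0612) and with library totals alone as the scale (0.56, adjusted p = 0.0891). The CXCL3 call against siVPS4B#1 ended without siVPS4A+B#1 replicate 1 (0.58, adjusted p = 0.0286, under 1.5-fold) and without all libraries of replicate 4 (0.63, adjusted p = 0.0658). That against siVPS4A#2 ended without all libraries of replicate 1 (0.58, adjusted p = 0.0326), and on library totals alone both fell under 1.5-fold (0.56 and 0.58). Against siVPS4A#1, siVPS4A+B#2 raised all 4 members, by 4.51, 2.11, 2.22 and 1.07 for CXCL8, CXCL1, CXCL2 and CXCL3, where 17.5% of genes were called. With the library that was left out these became 3.07, 1.67, 1.52 and 0.76, all still called. Against siVPS4B#2 the changes were 4.30, 1.80, 1.69 and 0.48, where 25.7% of genes were called, and CXCL3 was not called (adjusted p = 0.0224, under 1.5-fold), though it was without all libraries of replicate 3 (0.62, adjusted p = 0.0106).

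The interaction term subtracts both single effects, each against siCTRL#1, from the effect of the pair on the log2 scale. For siVPS4A+B#1 it was 5.03 ± 0.34 (SE, adjusted p = 2.36e-14) for CXCL8 and 2.48 ± 0.32 (adjusted p = 1.08e-06) for CXCL2, and both passed. CXCL1 at 0.93 ± 0.32 (adjusted p = 0.0789) and CXCL3 at 0.57 ± 0.24 (adjusted p = 0.163) did not, where 6.34% of all genes passed at an adjusted p under 0.05. The CXCL1 term passed without siCTRL#1 replicate 1 (1.07, adjusted p = 0.0476) or siVPS4A+B#1 replicate 3 (1.12, adjusted p = 0.0363). For siVPS4A+B#2 it was 4.50 ± 0.33 for CXCL8, 2.09 ± 0.32 for CXCL2 and 1.74 ± 0.32 for CXCL1 (adjusted p = 4.39e-13, 7.10e-06 and 0.000101), and 0.51 ± 0.24 for CXCL3 (adjusted p = 0.129), where 19.7% of all genes passed. With the left-out library the term for that pair was 3.21 for CXCL8 (adjusted p = 0.0232) and 1.36 for CXCL1 (adjusted p = 0.0332), and that for CXCL2 no longer passed (1.46, adjusted p = 0.0748). With it the change of CXCL8 between the pairs, to neither of which it belongs, was -1.40 with an adjusted p of 0.146.

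**Figure D3:**
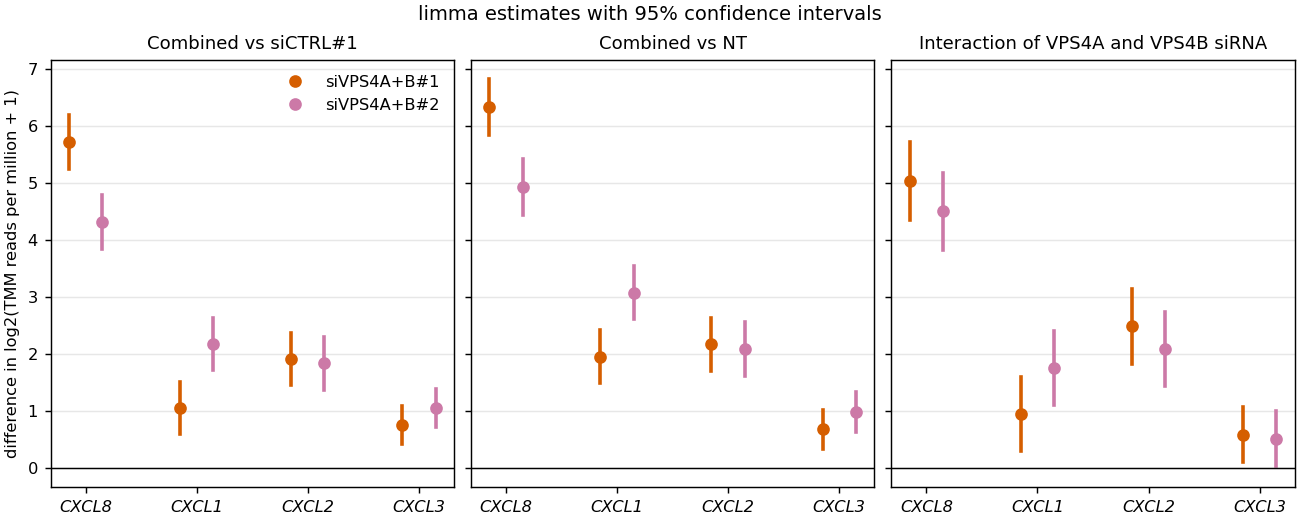
limma estimates with 95% confidence intervals for each chemokine (x axis), as differences in log2(RPM + 1) (y axis), for both combined conditions against siCTRL#1 (left), against NT (middle) and as the interaction of both siRNAs (right). CXCL8 is highest in every panel, at 4.31 to 6.32, and CXCL1 is higher with siVPS4A+B#2 than with siVPS4A+B#1 (2.16 against 1.04 in the left panel).

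The left-out library itself held 188 CXCL8 reads in its 669257, or 304 RPM, against 2.32 to 4.39 RPM in the other siVPS4A#1 libraries. It had 9 CXCL1 reads (14.6 RPM), 10 CXCL2 reads (16.2 RPM) and 2 CXCL3 reads (3.24 RPM), of which the last is under the floor of 3 reads. With it, siVPS4A#1 against siCTRL#1 gave 1.10 for CXCL8 (adjusted p = 0.180) and 0.46 for CXCL1 (adjusted p = 0.218). Against NT cells the CXCL8 estimate became 1.87 (adjusted p = 0.0319).

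Other chemokines were rarely measured, and the few counts that follow stand beside 10.6% of all genes called higher and 11.5% lower in siVPS4A+B#1, and 12.8% and 15.9% in siVPS4A+B#2. Of 40 other ligands 3 were listed, and CCL26, an eotaxin that attracts eosinophils, was called higher in both combined conditions at 1.42 ± 0.506 (SD, n = 4) and 1.79 ± 0.631 RPM (SD, n = 4) against 0.519 ± 0.118 (SD, n = 5) in siCTRL#1. The log2 fold changes were 0.60 and 0.80 (adjusted p = 0.0125 and 0.000745). Neither CCL5 nor CXCL17 was called. Of 24 receptors and beta-arrestins 4 were listed, CXCR1 and CXCR2 not among them, and 2 were called lower in both conditions. CXCR4, the receptor of CXCL12, fell by 0.77 and 0.84 on the log2 scale (adjusted p = 0.00298 and 0.000983), and ACKR2, a scavenger of CC chemokines, fell by 0.59 and 0.68 (adjusted p = 0.00930 and 0.00214), from 1.17 and 1.10 RPM in siCTRL#1 cells. ARRB1 and ARRB2, the beta-arrestins, were not called. Against NT cells CXCR4, but not ACKR2, was called lower in both combined conditions. CXCR4 was also called lower than in siCTRL#1 cells with siVPS4A#1 and with siVPS4B#1 alone. The siCTRL#1 level of CCL26 lay within the floor of 3 reads, 0.272 to 0.589 RPM. CXCR4 and ACKR2 started not far above that floor, so the calls of these genes rest on few reads.

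Cytokines and cytokine receptors were followed as a list. Of 25, 15 were measured, and 9 were called higher and 0 lower in siVPS4A+B#1 against siCTRL#1, against 10.6% and 11.5% of all genes, with a median log2 fold change of 0.66 beside -0.02 over all genes. In siVPS4A+B#2 6 were higher and 3 lower, against 12.8% and 15.9% of all genes, with a median of 0.54 beside -0.02. IL32, a proinflammatory cytokine, went from 0.313 ± 0.218 RPM (SD, n = 5) to 27.1 ± 9.79 and 7.82 ± 2.15 RPM (SD, n = 4). IL18, of the interleukin 1 family, went from 135 ± 15.3 to 360 ± 102 and 558 ± 134 RPM. CSF1, the macrophage growth factor, rose by 1.98 and 1.04 and IL6R by 0.92 and 1.30 on the log2 scale. IL11 was called in opposite directions against siCTRL#1, 0.76 and -0.60, but not against NT. With NT as the reference, siVPS4A+B#1 had 11 called rises, IL11 among them, and 0 falls. By that reference siVPS4A+B#2 had 9 called rises and 0 falls, and IL11 was uncalled. The siCTRL#1 duplex itself stood above NT, as called, for IL1R1, IL1RAP, IL6R and CSF1.

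Of 26 factors of chemokine promoters and inhibitors of NF-kB, 25 were measured. Against siCTRL#1, 13 were called higher and 0 lower in siVPS4A+B#1 (median 0.65), beside 10.6% and 11.5% of all genes. In siVPS4A+B#2 12 were higher and 3 lower (median 0.45), beside 12.8% and 15.9%. NFKBIA, NFKBIB and NFKBIE, which encode IkB inhibitors, were among those called higher with both pairs. Against NT cells NFKBIA and NFKBIE were called higher with both pairs, and NFKBIB with neither. RELB and NFKB2, subunits of the noncanonical NF-kB branch, rose by 2.65 and 2.38 in siVPS4A+B#1 and by 2.58 and 1.67 in siVPS4A+B#2. NFKBIA, which encodes the inhibitor IkB-alpha and is itself an NF-kB target, rose by 2.00 in both. ATF3, a stress-induced factor of the CREB family, rose by 1.64 and 2.31. RELA, the canonical subunit, was not called against siCTRL#1, at 0.48 and 0.45 (adjusted p = 0.0169 and 0.0212, under 1.5-fold). Against NT cells RELA was called higher with both pairs, where 12.6% and 13.2% of all genes were called higher. The genes called lower in siVPS4A+B#2 were CEBPB (-1.04), FOS (-0.92) and PARP1 (-1.12), and the CEBPB estimate in siVPS4A+B#1 was 0.50, under 1.5-fold.

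Factors of AU-rich mRNA decay and stability were all measured. Of these 19, 8 were higher and 1 lower in siVPS4A+B#1 (median 0.28), and 7 higher and 3 lower in siVPS4A+B#2 (median 0.10). Over all genes 10.6% and 12.8% were called higher, and the lower calls in siVPS4A+B#2 were near the share over all genes, 15.9%. DUSP1 and DUSP10, phosphatases of the p38 and JNK kinases, rose by 2.33 and 1.86 in siVPS4A+B#1 and by 2.31 and 1.22 in siVPS4A+B#2. ZFP36, or tristetraprolin, which binds AU-rich elements and hastens decay, rose by 1.55 and 1.27, and ZC3H12A, or Regnase-1, an RNase for cytokine mRNAs, by 1.65 and 1.16. Against siCTRL#1, ZFP36, DUSP1 and DUSP10 were also called higher with siVPS4B#1 alone, and DUSP1 with siVPS4B#2 alone. In these comparisons 12.9% and 7.57% of all genes were called.

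**Figure D4:**
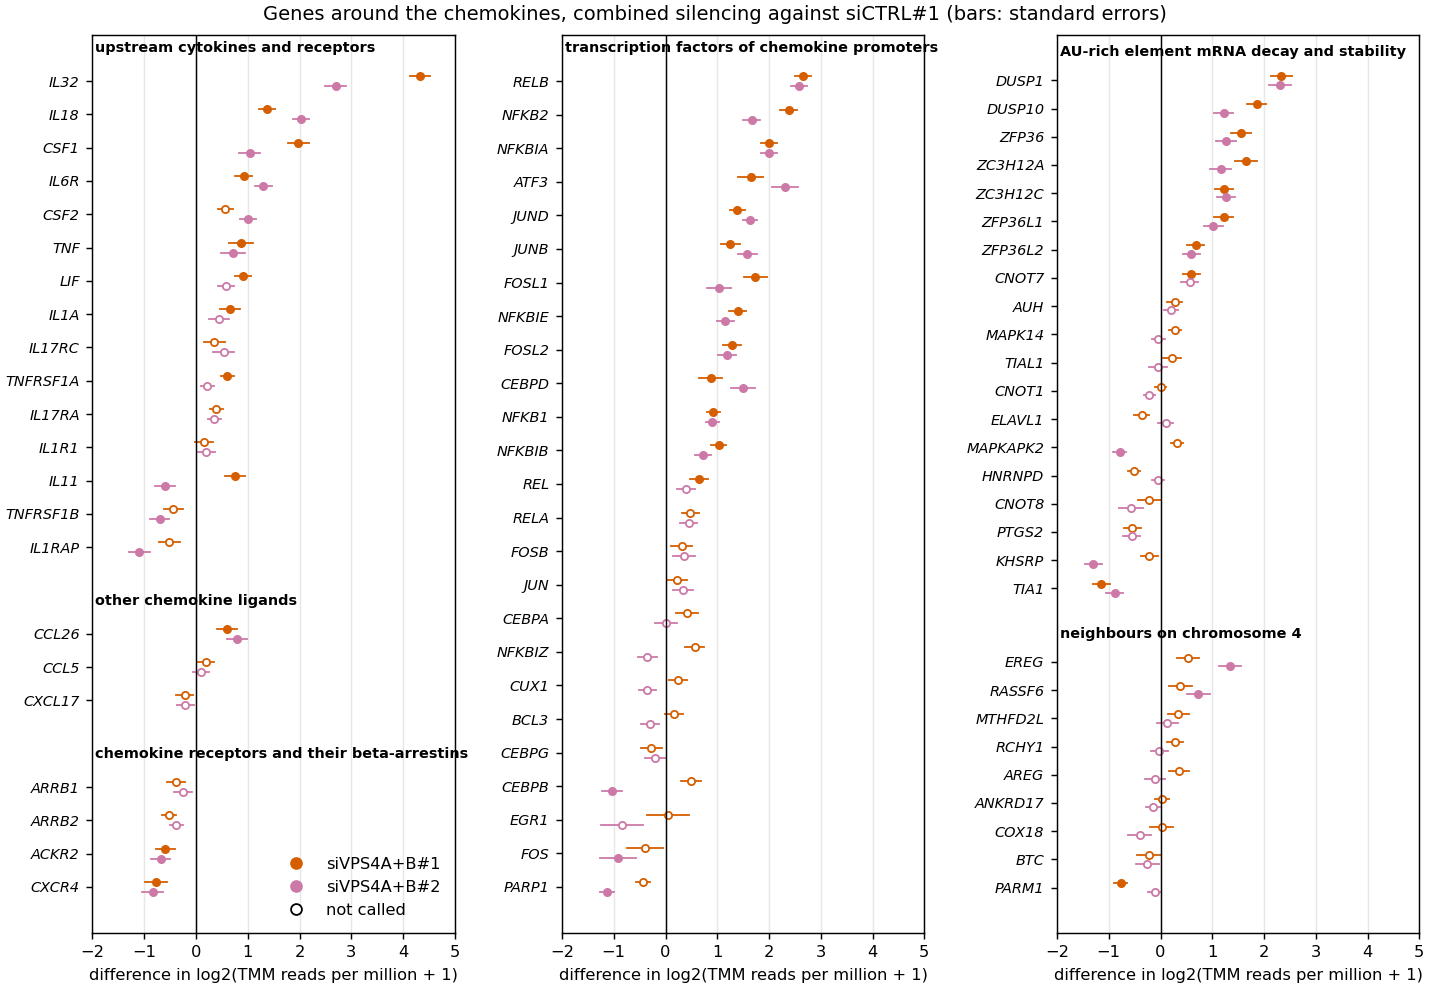
Differences in log2(RPM + 1) from siCTRL#1 (x axis) for the measured genes of the 6 lists (rows), with standard errors, in siVPS4A+B#1 and siVPS4A+B#2. Filled points were called. IL32 and RELB lead their lists, and CXCR4 and ACKR2 lie below 0 with both pairs.

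Genes flanking or lying among the chemokines were followed next. Of 18 neighbours 9 were measured, and in siVPS4A+B#1 0 were called higher and 1 lower (PARM1, -0.77), with a median log2 fold change of 0.28. In siVPS4A+B#2 2 were higher and 0 lower, EREG (1.34) and RASSF6 (0.73), with a median of -0.10. Over all genes 11.5% were called lower in siVPS4A+B#1 and 12.8% higher in siVPS4A+B#2, and no result is read from counts among 9 genes. RASSF6 lies 120 kb and EREG 266 kb outside the span of the chemokines, and RCHY1 was the farthest listed gene, at 1439 kb. CXCL5, CXCL6, PPBP, PF4 and PF4V1, which lie within the span, were not among the genes measured.

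By their means in the 9 conditions, with log2 levels, the members correlated with each other at Pearson r of 0.826 to 0.967, with the highest value for CXCL2 and CXCL8 and the lowest for CXCL3 and CXCL8. These 9 points share their libraries and, in the controls, low levels near the floor. Among 9569 genes with a mean of at least 5 RPM, the genes most like CXCL8 were KLF6 (r = 0.989), NUAK2 (0.983), TNIP1 (0.979), BIRC3 (0.978) and ZC3H12A (0.978). Those most like CXCL2 were BIRC3 (0.982), TNFRSF9 (0.979), KLF6 (0.971), SQSTM1 (0.969) and GLA (0.967). BIRC3, which encodes the ubiquitin ligase cIAP2, stood at 8.88 ± 1.18 RPM (SD, n = 5) in siCTRL#1 cells, 272 ± 91.0 (SD, n = 4) in siVPS4A+B#1 and 264 ± 40.1 (SD, n = 4) in siVPS4A+B#2. KLF6, a zinc finger factor, stood at 82.9 ± 11.4, 362 ± 127 and 306 ± 72.3 RPM. For CXCL1 the list held other genes, SLC35E1 (r = 0.977), ERBIN (0.969), MTF1 (0.968), NPC1 (0.966) and CYP4F3 (0.966), and SLC35E1 was likewise highest in siVPS4A+B#2, at 197 ± 20.2 RPM against 141 ± 25.8 in siVPS4A+B#1. For CXCL3 it held TOMM6 (0.948), a gene listed as NM_001037533 (0.943), SYS1 (0.939), C3orf52 (0.937) and PSMD11 (0.933).

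Of the markers of other cell types, CD68, a lysosomal glycoprotein of macrophages that other cells also express, moved with the chemokines. The summed level of CD68 and LYZ was 6.13 to 10.7 RPM in siCTRL#1, 19.9 to 26.3 in siVPS4B#1, 90.4 to 176 in siVPS4A+B#1 and 41.0 to 95.6 in siVPS4A+B#2. CD68 itself rose by 3.92 and 2.65 on the log2 scale (adjusted p = 6.33e-20 and 1.25e-14). LYZ was listed at 0 in siVPS4A+B#1, under the floor, and at a mean of 0.243 RPM in siVPS4A+B#2, and PTPRC, the pan-leukocyte marker, was not among the genes measured. COL1A1 and PDGFRB summed to 15.9 to 32.1 RPM in siCTRL#1, 23.0 to 41.2 in siVPS4A+B#1 and 51.4 to 85.4 in siVPS4A+B#2, and PECAM1 and KDR to at most 1.94 RPM in any library. The part of other cells in these results was not tested.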

How the data were processed

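RNA of HCT116 cells was measured in 38 libraries of 9 conditions, grouped by sample titles. Per the methods and labels, the authors amplified transcripts with an Ion AmpliSeq panel, aligned the reads to hg19 panel transcripts and counted them with HTSeq (0.6.0 in the submitters' processing notes, which also name DESeq2 1.18.1). The deposited values are a signal, each gene's share of the listed reads of its library, so that libraries sum to 1. How counts became shares is not given in the sources used here.

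Reads were recovered as whole multiples of the smallest step (100% of 86114 low values within 0.1 read). Of all values 50.4% were printed finely enough to be placed, and 100% of these were whole. Because the values are shares and not counts, limma on log2(TMM-scaled reads per 1000000 + 1) was kept as the planned test. A count test had been foreseen as the main test only for raw counts. The model covered all 9 conditions, with replicate number as the block, in 37 libraries, with an intensity trend and Benjamini-Hochberg adjustment over 12627 genes. The labels give each replicate number its own batch letter. Residuals of libraries of the same number correlated at a mean of 0.185 (137 pairs), those of different numbers at -0.0819 (529 pairs). No replicates agreed within sampling noise (chi-square per degree of freedom of at least 2.50 in 58 pairs). The study's legends describe the replicates as independent experiments, and p-values measure the spread between them. A level of 3 reads was taken as the floor, 0.272 to 0.589 RPM, which covers counting error alone because reads of 1 amplicon can stem from the same molecule.

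Symbols matched for 12471 identifiers. The members and gene lists were chosen with earlier results of these data known. Named genes were the members, VPS4A and VPS4B, at most 4 called genes of each list by mean change in both combined conditions, and the 5 genes most like each member. RELA, CEBPB, IL11, CCL5, CXCL17, FOS, PARP1 and the markers were named after their values were seen. Alternatives were edgeR's quasi-likelihood test and DESeq2 on recovered reads, no replicate block, other scalings, pseudocounts of 0.1 and 5, filterByExpr, limma's treat at 1.5-fold, the left-out library, the compared conditions alone, and leaving out replicates or single libraries. On simulated reads of 12627 genes for siVPS4A+B#1 against siCTRL#1, 100% of 100 raised and 100% of 100 lowered genes at 3-fold were called. Wrong calls numbered 12 among 12427 others. The share called was not split by level, so it gives no sensitivity at levels as low as those of CXCL1, CXCL2 and CXCL3. Software was R 4.3.3, limma 3.58.1, edgeR 4.0.16, DESeq2 1.42.0, Python 3.11.15, scipy 1.17.1 and Biopython 1.88.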

Additional observations from a re-analysis of the deposited data

Results flagged for a closer look

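Within groups of 4 or 5 libraries, 8 of 36 sets of chemokine values held a library that stood apart from the others by Dixon's criterion, of which chance gives about 1 in 20. The high libraries were 1.71 RPM for CXCL1 and 4.56 RPM for CXCL8 in NT, both of replicate 1, 2.76 RPM for CXCL1 in siCTRL#2, 1.06 RPM for CXCL3 in siVPS4A#2 and 4.39 RPM for CXCL8 in siVPS4A#1. The low libraries were all for CXCL8, at 2.89 RPM in siCTRL#1, 5.20 RPM in siVPS4B#1 and 56.8 RPM in siVPS4A+B#2.

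By limma, siVPS4A+B#2 differed from siVPS4A+B#1 by a log2 fold change of -1.40 for CXCL8 (lower in 4 of 4 libraries than every siVPS4A+B#1 library) and of 1.12 for CXCL1 (higher in 4 of 4). The interaction of the VPS4A and VPS4B duplexes passed at 5.03 for CXCL8 and 2.48 for CXCL2 in siVPS4A+B#1. In siVPS4A+B#2 it passed at 4.50 for CXCL8, 1.74 for CXCL1 and 2.09 for CXCL2.

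In the library labelled siVPS4A#1 replicate 2, which no comparison above used unless stated, the chemokines stood above every control library, at 14.6 RPM for CXCL1, 16.2 RPM for CXCL2, 3.24 RPM for CXCL3 (2 reads) and 304 RPM for CXCL8.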

How the results depend on the processing

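The 28 estimates of the members covered combined silencing against siCTRL#1 and NT, the change between the pairs and the interactions. Of their 1476 alternative values 1462 kept the call, and 0 reversed the direction of a called estimate. Direction was not kept for the uncalled change of CXCL2 between the pairs, which ran from -0.32 to 0.11. With limma's treat, calls were lost for CXCL1 in siVPS4A+B#1 against siCTRL#1 (1.04) and between the pairs (1.12), and for CXCL3 against siCTRL#1 in siVPS4A+B#1 (0.75) and against NT in siVPS4A+B#1 (0.67) and siVPS4A+B#2 (0.97). With a pseudocount of 5, CXCL3 fell under 1.5-fold against siCTRL#1 (0.25 and 0.38) and NT (0.23 and 0.36), which the larger constant itself brings about at these levels, and the CXCL1 interaction in siVPS4A+B#1 passed (0.53, adjusted p = 0.0499). With the left-out library, the CXCL2 interaction in siVPS4A+B#2 (1.46) and the change of CXCL8 between the pairs (-1.40) were lost, the latter only through the shared fit. Leaving out libraries made the CXCL1 interaction in siVPS4A+B#1 pass at 1.07 and 1.12, within a range of 0.70 to 1.12. The ratios could not pass with 3 libraries against 3 (smallest exact p = 0.1), and ran from -3.02 to -2.32 for CXCL8:CXCL1, -2.03 to -1.66 for CXCL8:CXCL3, 1.18 to 1.45 for CXCL1:CXCL2 and 0.66 to 0.99 for CXCL1:CXCL3. Without the replicate block 94 of 96 member calls were kept, and CXCL1 in siVPS4A#2 (0.66, adjusted p = 0.0604) and CXCL8 in siVPS4B#2 (0.63, adjusted p = 0.0611) against NT were lost. The sign-flip test over libraries of the same number (replicate block) cannot go below an exact p of 0.125. Scaling by library totals moved the median of all genes to -0.16 and -0.13 in the combined conditions, from -0.02. Of 1270 alternative counts of called genes, 1211 were within 1.5 times the main count. For siVPS4A+B#1 and siVPS4A+B#2 against siCTRL#1, 2793 and 3630 genes became 618 and 1121 with treat and 1763 and 2398 with a pseudocount of 5, and the interactions, 800 and 2489 genes, became 327 and 1267 with the left-out library. The depth of CXCL3, 2 to 19 reads a library, limits what its single conditions can show.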
